A study of Homo sapiens with 8 samples.

Results

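HOXA5, HOXA7, HOXA9, HOXA10, HOXA13, MEIS1, MEIS2, PBX2 and PBX3 are homeobox genes, and 15 of the 15412 PML::RARA peaks in induced U937-PR9 cells were taken to be theirs. A peak was included when it carried the symbol of 1 of these 9 genes, when it carried no symbol and its centre lay within 50 kb of such a peak, or when it lay in the HOXA cluster between 27130000 and 27250000 on chromosome 7 (hg19). The choice of peaks used position and gene symbol, not the signal. The 9 genes themselves were chosen with earlier results of these data known. Of the 15 peaks, 13 lay in the HOXA window, 1 carried the symbol of PBX3 and 1 that of MEIS2. A peak carried the symbol of 6 of the 9 genes, whereas HOXA5, MEIS1 and PBX2 had none.

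U937-PR9 is a human monocytic cell line with a PML::RARA fusion transgene under a zinc-inducible promoter, and it is the only line behind these values. The line descends from U937, which is known to carry a PICALM::MLLT10 fusion, so that induced and uninduced cells share this background. Cells received 100 μM ZnSO4 (induced) or sterile water (uninduced) for 5 h, and Cut&Run, in which a nuclease tethered to an antibody releases the DNA at its target, was performed with antibodies to PML::RARA or to RARA. The study describes 8 such libraries in 4 groups of 2 replicates. Only 1 peak list was analysed here. It was taken to be that of the anti-PML::RARA antibody after induction, reproducible in both replicates, from its name and its number of peaks, since the labels tie it to no library. The other libraries, gene expression and zinc-treated cells without the transgene were not analysed here, so an effect of zinc and an effect of the fusion cannot be told apart. Each peak has a single set of values, and whether these are of 1 replicate, a mean or pooled reads is not known. No replicate error can therefore be given, and no difference between peaks was tested. Sequencing depth is unknown.

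HOX genes encode transcription factors that set positional identity in the embryo, and in blood the HOXA genes of the 5′ part of the cluster are active in stem and progenitor cells and fall silent as cells mature. HOXA9 binds DNA together with the TALE-class cofactors MEIS1 and PBX3, and this complex drives self-renewal in many acute myeloid leukemias, among them those with KMT2A or PICALM::MLLT10 fusions. Acute promyelocytic leukemia, which PML::RARA causes, typically shows low HOXA and MEIS1 expression. Retinoic acid, the ligand of RARA, is a classical activator of HOX clusters, beginning at their 3′ end, where the myeloid noncoding RNA HOTAIRM1 is also transcribed.

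The sequences at 5 places are shown to let the loci be read beside their signal. They are taken from the plus strand of GRCh37 (hg19). The HOXA10 stretch is centred on a direct repeat that lies 1311 bp from the apex, the middle of the interval of largest signal, and the others cover up to 300 bases around the apex, cut back where an annotated UTR began. The first belongs to the only peak of these loci in which a search found a direct repeat of the RAR type. That search covered spacers of 1, 2 and 5 bases only. The others belong to the HOXA9, HOXA13 and PBX3 peaks and to the peak at the MEIS1 start site. Capitals mark every match on either strand to AGGTCA or AGTTCA (the hexamer bound by RAR and its T variant), GGAAGT (ETS), TGACAG (MEIS), CACGTG (E-box) and GGGCGG (GC box, which reads CCGCCC on the opposite strand). In the HOXA10 stretch only the repeat is in capitals.

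HOXA10 direct repeat, chr7:27212771-27212904: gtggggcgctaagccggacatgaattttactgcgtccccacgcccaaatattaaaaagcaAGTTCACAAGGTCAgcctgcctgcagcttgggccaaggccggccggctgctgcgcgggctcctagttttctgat
HOXA9, chr7:27205157-27205370: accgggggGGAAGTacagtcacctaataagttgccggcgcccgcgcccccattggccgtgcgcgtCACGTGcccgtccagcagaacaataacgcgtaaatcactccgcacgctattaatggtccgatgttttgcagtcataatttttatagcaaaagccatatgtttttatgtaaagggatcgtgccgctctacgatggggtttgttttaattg
HOXA13, chr7:27239852-27240151: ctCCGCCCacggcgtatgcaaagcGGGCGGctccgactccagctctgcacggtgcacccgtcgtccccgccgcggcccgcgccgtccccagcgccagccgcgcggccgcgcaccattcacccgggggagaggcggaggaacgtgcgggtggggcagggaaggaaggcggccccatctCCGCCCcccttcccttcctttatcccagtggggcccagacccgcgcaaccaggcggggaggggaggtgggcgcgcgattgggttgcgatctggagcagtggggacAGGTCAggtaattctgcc
PBX3, chr9:128508371-128508670: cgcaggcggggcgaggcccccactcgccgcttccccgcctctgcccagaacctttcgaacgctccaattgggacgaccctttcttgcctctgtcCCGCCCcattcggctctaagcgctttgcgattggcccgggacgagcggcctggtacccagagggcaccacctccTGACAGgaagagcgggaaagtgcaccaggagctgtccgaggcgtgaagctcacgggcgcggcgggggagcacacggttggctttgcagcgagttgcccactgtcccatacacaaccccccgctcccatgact
MEIS1 start site, chr2:66660489-66660788: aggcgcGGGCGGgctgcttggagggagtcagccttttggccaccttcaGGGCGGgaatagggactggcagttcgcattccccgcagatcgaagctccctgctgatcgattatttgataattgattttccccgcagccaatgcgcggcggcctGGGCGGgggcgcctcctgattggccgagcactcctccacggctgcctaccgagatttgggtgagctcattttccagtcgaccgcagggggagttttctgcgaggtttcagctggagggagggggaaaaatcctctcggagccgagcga

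The HOXA cluster carried broad PML::RARA peaks of moderate height from HOXA7 to HOXA13 and smaller, scattered peaks before HOXA7. Peak height, the largest signal within a peak in the authors' units, had a median of 22 over the 13 peaks of the HOXA window and ranged from 18 to 33, beside a median of 25 and a range of 13 to 87 in the whole list. Peak width, in contrast, had a median of 2054 bp in the window and of 829.5 bp in the list. The 8 peaks from HOXA7 onward were 1582 to 4351 bp wide, and the 5 peaks before HOXA7 were 365 to 1655 bp wide. Together the 13 peaks covered 25901 bp, or 21.6% of the 120 kb of the window. The map of heights along the cluster shows the uneven spacing, with the longest stretch without a peak, 37899 bp, between HOTAIRM1 and an intron of HOXA3.

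**Figure D1:**
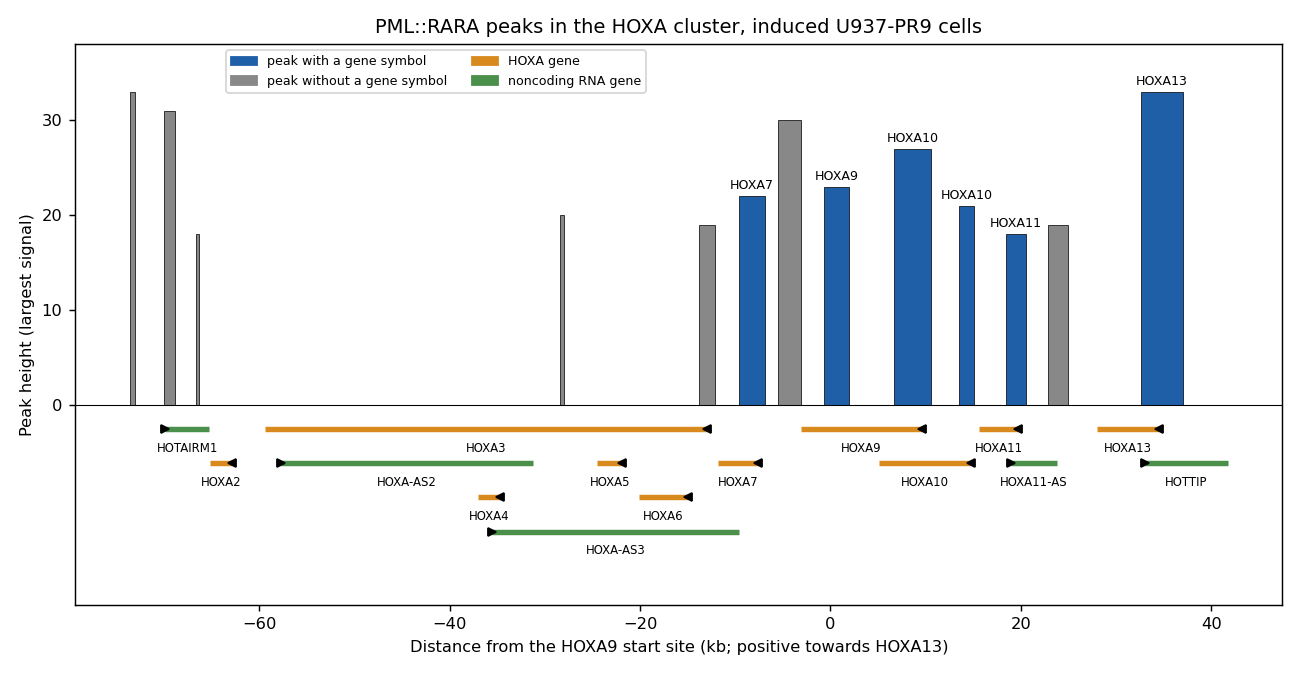
Height of each of the 13 peaks of the HOXA window (vertical axis, largest signal) against distance from the HOXA9 start site in kb, with bars as wide as the peaks, selected gene bodies below and arrowheads at their 5′ ends. The wide peaks with HOXA7, HOXA9, HOXA10, HOXA11 and HOXA13 symbols lie close together on the right, with unlabelled peaks of over 2 kb among them, and the peaks on the left, all without a symbol, are 365 to 1655 bp wide.

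HOXA9 (ENSG00000078399, minus strand, 27202057 to 27214799) is the cluster's best known leukemia gene. Its peak spanned 27204455 to 27207135, and the signal was largest 65 bp upstream of a HOXA9 start site. With a height of 23, it ranked 8433rd in the list and exceeded 40.7% of the peaks, whereas its width of 2681 bp ranked 341st and exceeded 97.8%. Equal values share the best rank here and below. The annotated HOXA9 gene reaches much farther upstream through its longest transcript, and the 5′ end of that transcript was covered by the neighbouring peak with the HOXA10 symbol. Another peak, from 27199626 to 27202057, carried no symbol and reached the last annotated base of HOXA9. It was 2432 bp wide and 30 high, above 66.2% of the peaks, and its apex lay 3607 bp upstream of the nearest protein-coding start site, that of HOXA7.

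HOXA10 (ENSG00000253293, minus strand, 27210224 to 27219880), which also acts in progenitor cells, was the only member with more than 1 peak under its symbol. The wider of them spanned 27211878 to 27215714 and was largest 203 bp upstream of a HOXA10 start site, at a height of 27, above 56.7% of the list (rank 6155). Its width of 3837 bp ranked 76th and exceeded 99.5%. The other, at 27218642 to 27220223, covered the annotated 5′ end of HOXA10, and its apex fell 140 bp inside the HOXA10 and HOXA9 readthrough gene ENSG00000257184. At 21 high (rank 9879) and 1582 bp wide (rank 2173), it was the narrowest peak from HOXA7 onward.

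HOXA7 (ENSG00000122592, minus strand, 27193335 to 27197555) had a peak from 27195548 to 27198292 whose apex fell on a HOXA7 start site, in the 5′ UTR of exon 1. Its height of 22 ranked 9138th, above 35.9% of the peaks, and its width of 2745 bp ranked 317th, above 97.9%. The HOXA7, HOXA9 and second HOXA10 peaks, at 22, 23 and 21, therefore lay below the median height of 25, although they were far wider than the median peak.

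HOXA13 (ENSG00000106031, minus strand, 27233122 to 27239710), a gene of limb and genital development, had the widest peak of the cluster. It lay from 27237834 to 27242184 and its width of 4351 bp ranked 39th in the list, above 99.7% of the peaks. Its height of 33 ranked 3709th, above 73.8%. The apex lay 292 bp upstream of HOXA13 and 54 bp upstream of a start site of HOTTIP, the noncoding RNA that is transcribed away from HOXA13, and the peak covered the 5′ ends of both genes. Over its whole width the mean signal per base was 23.6% of the height, beside a median of 34.9% in the list, and only 2.8% of the peaks had a smaller share.

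HOXA11, not among the 9 genes but inside the window, had a peak at 27223598 to 27225651. The peak was largest 1 bp from the HOXA11 start and also covered the 5′ end of the antisense gene HOXA11-AS. It was 2054 bp wide (rank 948) and, with a height of 18 (rank 12401), above only 13.7% of the list. A peak without a symbol between HOXA11 and HOXA13, from 27227979 to 27230114, was similar in form, being 2136 bp wide (rank 822) and 19 high (rank 11488). The mean signal of both was a larger share of the height, 46.3% and 42.7%, than in any other peak of the HOXA window.

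HOXA5 (ENSG00000106004, minus strand, 27180671 to 27183300), a gene of myeloid lineage choice, had no peak. The nearest peaks ended 3549 bp away on the HOXA3 side and began 8044 bp away on the HOXA7 side. HOXA2, HOXA4 and HOXA6 likewise had no peak over the gene.

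The 5 peaks before HOXA7 carried no symbol. The 5′ end of HOTAIRM1 was covered by a peak from 27135175 to 27136272, which was 31 high (rank 4397) and 1098 bp wide (rank 5102), and another HOTAIRM1 start site lay 9 bp from its apex. A narrower peak, from 27131573 to 27132144, lay outside annotated genes. Its height of 33 equalled that of HOXA13 at a width of only 572 bp (rank 10985).

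A peak from 27138465 to 27138829, within HOTAIRM1, was 18 high (rank 12401) and 365 bp wide (rank 13832). The peak from 27176729 to 27177121, in introns of HOXA3 and of HOXA-AS3, was 20 high (rank 10691) and 393 bp wide (rank 13477). The last, from 27191345 to 27192999, covered the 5′ end of HOXA3 and was 19 high (rank 11488) and 1655 bp wide (rank 1884), with its apex 62 bp upstream. The higher peaks of this side thus lay at its outer end, and the widest lay at the far HOXA3 start site, next to HOXA7.

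PBX3 (ENSG00000167081, plus strand of chromosome 9, 128509624 to 128729656), a PBX gene linked with HOXA9 in leukemia, had the highest of the 15 peaks. It lay from 128508136 to 128509253, was 35 high, above 77.9% of the list (rank 3088), and 1118 bp wide, above 67.9% (rank 4942). Its apex lay 1103 bp upstream of PBX3, in exon 1 of the divergent transcript PBX3-DT, and the peak ended 370 bp before the PBX3 5′ end. The mean signal of the PBX3 peak was 45.5% of the height, a larger share than in 91.2% of the peaks.

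MEIS2 (ENSG00000134138, minus strand of chromosome 15, 37181405 to 37393500), a paralog of MEIS1, had a peak from 37392804 to 37394290 over its 5′ end with the apex 25 bp upstream of a start site. It was 20 high (rank 10691), above 25.5% of the peaks, and 1487 bp wide (rank 2626), above 82.9%. Its mean signal was 24.8% of the height. MEIS2 and PBX3 thus differed in form. The MEIS2 peak was lower and wider, with its apex close to a start site. The PBX3 peak was higher and narrower, with its apex displaced upstream and a mean signal closer to its height.

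MEIS1 (ENSG00000143995, plus strand of chromosome 2, 66660584 to 66801001), the HOXA9 cofactor and target, had no peak under its own symbol but was not free of peaks. A peak from 66659925 to 66660884, given the symbol of the antisense gene MEIS1-AS3, covered the MEIS1 5′ end with its apex 55 bp downstream. It was 960 bp wide and 16 high, and only 0.1% of the peaks were lower. A second MEIS1-AS3 peak, from 66661930 to 66662427, was 21 high and 498 bp wide, and its apex fell on another MEIS1 start site, at 66662301. Another, from 66673056 to 66673474 in intron 6 of MEIS1, had a height of 16. Under the rule these 3 peaks are not among the 15.

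PBX2 (ENSG00000204304, minus strand of chromosome 6, 32152510 to 32157979), a broadly expressed PBX gene, had no peak over the gene. The nearest, with the symbol of GPSM3, lay 1961 bp upstream of its 5′ end and was 16 high. Other peaks on either side were much higher. A GPSM3 peak from 32162676 to 32164458 reached 45, and a peak with the AGPAT1 symbol from 32145032 to 32146264, whose apex lay 102 bp upstream of RNF5, reached 62 (rank 103 of the list). PBX2 thus lay between high peaks that were assigned to its neighbours.

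**Figure D2:**
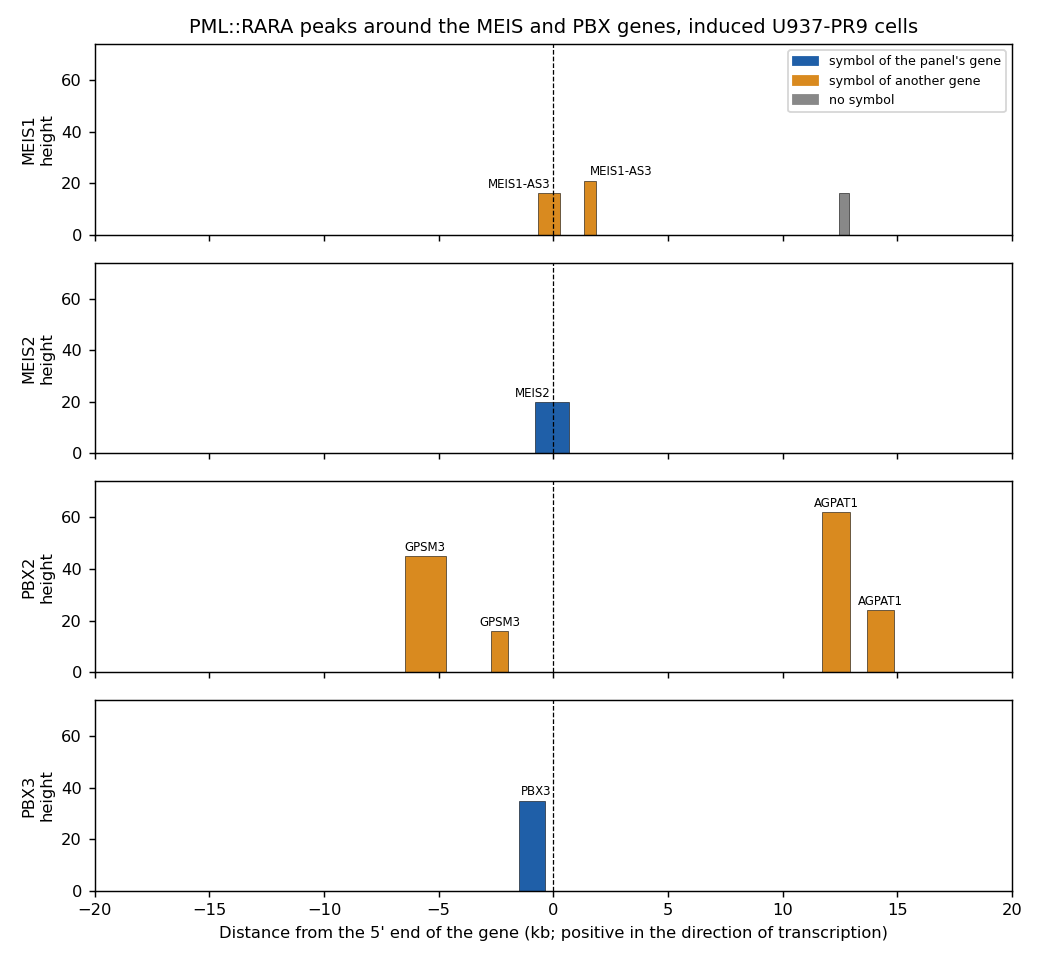
Height of every peak (vertical axes, largest signal) within 20 kb of the 5′ ends of MEIS1, MEIS2, PBX2 and PBX3, against distance in kb in the direction of transcription, with bars as wide as the peaks. MEIS1 has low peaks at its start sites under another symbol, the PBX3 peak of height 35 stops short of the 5′ end, and PBX2 has none over the gene.

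Read by gene, 6 of the 9 members had a peak under their own symbol, whereas 30.0% of all 20090 protein-coding genes did. When a gene was instead counted by an apex within 1 kb of any of its start sites, the number was also 6 of 9, beside 39.3% of all protein-coding genes, with MEIS1 gained and PBX3 lost. Within 3 kb it was 8 of 9, with HOXA5 as the exception, beside 42.1% of all protein-coding genes. Since HOXA7, HOXA9, HOXA10 and HOXA13 are neighbours, their peaks are not independent observations, and the counts are given as a description. The members were also chosen with earlier results of these data known, so the shares of all genes are no neutral measure for them. At or above the median height of 25, the symbols of 3 members remained, those of HOXA10, HOXA13 and PBX3. The share of all protein-coding genes at that height was not computed, so nothing is read from this count.

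Over the 15 peaks, 12 exceeded the median width, a share of 80% (Wilson 95% interval 54.8 to 93%), whereas 6 exceeded the median height, or 40% (19.8 to 64.3%). Of all peaks, 46.9% exceeded the median height, many being tied with it. The intervals cover the counting of peaks only. They treat the peaks as independent, which the 13 neighbouring peaks of the HOXA window are not. Total signal, which sums over the width, had a median of 15583 in the 15 peaks and of 7289.5 in the list. Symbols were carried by 8 of the 15 peaks, among them PBX3 and MEIS2, which were selected by their symbol, so this number is not set against the list. By position, 11 of the 15 apexes lay within 1 kb of an annotated start site, beside 54.9% of all apexes. This count includes PBX3 and MEIS2, whose selection by a promoter symbol favours a nearby start site. The other 13 peaks lay in the HOXA window, where closely spaced genes also favour a nearby start site.

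Width and height were set apart most clearly in the broad peaks. In the list, 1056 peaks (6.85%) were 2 kb wide or wider, and their median height was 36 (quartiles 28 and 45.25). Of the 15 peaks, 7 (46.7%) were this wide, all from HOXA7 onward, and their median height was 23, with a range of 18 to 33. Among all peaks of 2 kb or wider, 97.1% were higher than that of HOXA11, 90.3% than HOXA7 and 86.5% than HOXA9. For the wide HOXA10 peak the share was 75.6%, and for HOXA13 57.8%. All 7 were thus below the median height of the peaks of 2 kb or wider, and the plot shows height against width. No comparison with peaks of the same width was made. A peak is a contiguous stretch of signal in this caller, so a low, even signal over a long stretch is reported as 1 wide peak. The mean signal per base was 25.8% of the height at HOXA7, 29% at HOXA9, 31.6% at the wide HOXA10 peak and 23.6% at HOXA13. It was 46.3% at HOXA11, and 31.6% and 42.7% in the wide peaks without a symbol, beside a median of 34.9% in the list. Whether a low, even signal plays a part in these widths was not tested.

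**Figure D3:**
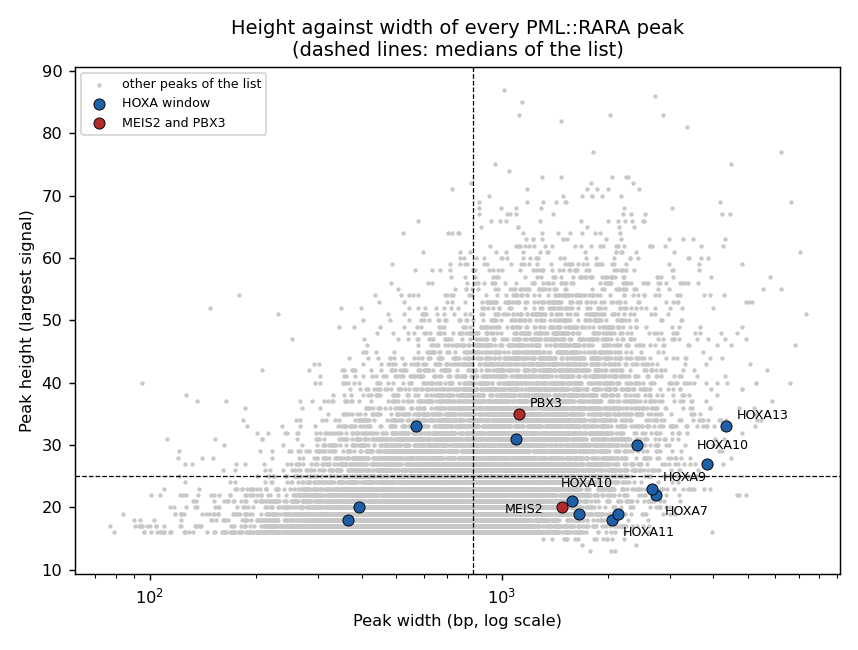
Height (largest signal) against width in bp on a log axis for all 15412 peaks in grey, with the 13 peaks of the HOXA window in blue, PBX3 and MEIS2 in red, and the medians of the list, 25 and 829.5 bp, as dashed lines. The HOXA peaks of 2 kb or more lie at the lower right, at heights of 18 to 33.

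The density of peaks was also compared along the genome, with windows of equal length beginning at each of the 15412 peaks. These windows overlap and are not independent. The HOXA window of 120 kb, which began before its first peak, held 13 peaks, beside a median of 3 and a maximum of 17, and 120 windows beginning outside it held as many or more. It held 25901 bp of peaks, beside a median of 2642 bp, and 5 windows elsewhere held as much or more. Its summed total signal of 202054 was reached by 104 windows elsewhere. By the number of peaks and their summed signal the HOXA window therefore had more counterparts than by the bases they covered.

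From the HOXA7 to the HOXA13 peak, 8 peaks covered 21818 of 46637 bp, or 46.8%, with gaps of 1333 to 7719 bp. No window of this length beginning outside the HOXA window had as many covered bases, and the largest held 21429 bp. The limits of this stretch were set by the peaks themselves after they were seen, which favours it in this comparison. With 8 peaks, it was matched by 109 windows elsewhere, and its summed total signal of 167545 by 23.

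The other HOX clusters, which arose with HOXA from a common ancestral cluster, carried far fewer peaks. Between the first and the last HOX gene, HOXA held 12 peaks over 21.34% of its 107099 bp. HOXC held 6 peaks over 5.27% of 117200 bp, with heights of 16 to 39 and a median width of 1150.5 bp, and symbols of HOXC4, HOXC6, HOXC10 and MIR615. HOXB held 2 peaks of height 16 without symbols, which covered 0.36% of 200225 bp, and HOXD held none in 98187 bp. The highest HOXC peak, at 39, stood above every HOXA peak, and the median height was 26 in HOXC and 21.5 in HOXA, whose peaks were more numerous and wider. Peaks are not replicates of a cluster, and this difference was not tested.

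**Figure D4:**
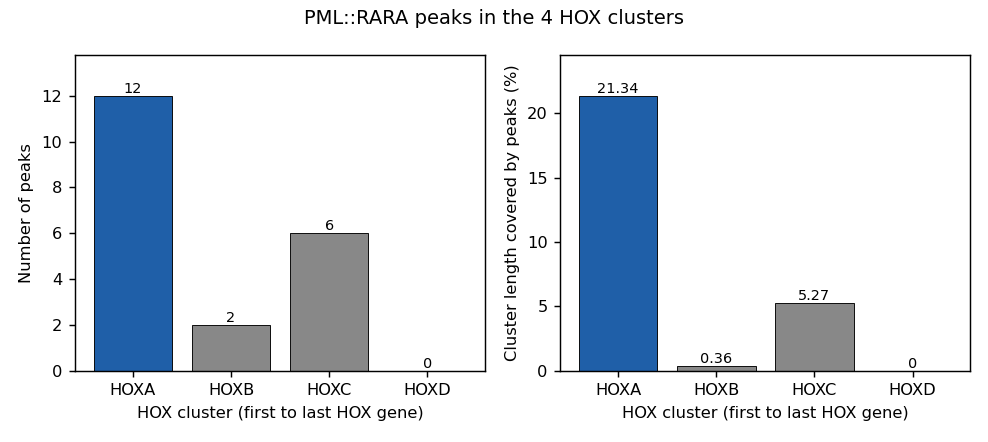
Number of peaks (left) and share of length covered by peaks in percent (right) in each HOX cluster, from its first to its last HOX gene. HOXA holds 12 peaks over 21.34% of its length, HOXC 6 over 5.27%, HOXB 2 over 0.36% and HOXD none.

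Genes that act with the HOXA genes were taken from fixed lists. Of the 11 HOXA genes, 5 carried their symbol on a peak (HOXA7, HOXA9, HOXA10, HOXA11 and HOXA13), and HOXA3 had an apex within 1 kb of a start site without being named. None of the 5 noncoding RNA genes of the cluster was named on a peak, although HOTAIRM1, HOXA11-AS and HOTTIP had an apex within 1 kb. Of the 9 TALE cofactor genes, MEIS2, PBX3 and PKNOX1 were named, and PKNOX1, whose protein also pairs with PBX, had the highest of these peaks, at 40 with a width of 2645 bp. PBX4, MEIS3 and PKNOX2 had neither a symbol nor an apex within 3 kb. By symbol, 45.5% of the HOXA genes, which are neighbours, and 33.3% of the TALE cofactor genes were named, beside 30.0% of all protein-coding genes. By an apex within 1 kb, the share of the TALE cofactor genes was also 33.3%, beside 39.3%. The TALE cofactor genes were thus near the share of all genes.

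Of 12 regulators of HOXA expression, 7 were named on a peak. PICALM and MLLT10, whose genes are joined in the U937 background, had peaks of height 47 and 21 and width 2329 and 1153 bp. MEN1, the KMT2A partner menin, had a peak of height 31, DOT1L, the H3K79 methyltransferase, one of 26, MLLT1 one of 24, MLLT3 one of 19 and PSIP1 one of 18. KMT2A and KAT7 had an apex within 1 kb of a start site under no symbol of their own, and CDX1, CDX2 and CDX4 had none. Of 8 genes known as targets of HOXA9 and MEIS1, MYB (height 34, width 4151 bp) and SOX4 (height 37, width 1002 bp) were named, and BCL2 and MYC had an apex within 1 kb of a start site, whereas FLT3, ERG, KIT and MECOM did not. By symbol, 58.3% of the regulators and 25% of the targets were named, beside 30.0% of all protein-coding genes. By an apex within 1 kb, the shares were 75% and 50%, beside 39.3%. With only 12 regulators and 8 targets, these shares rest on few genes, and no difference from all protein-coding genes is read from them.

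Just outside the limits, the nearest peaks to the HOXA window lay 77950 bp before it, 17 high and 475 bp wide, and 90022 bp after it, 20 high and 523 bp wide. The nearest peak without a symbol lay 1029564 bp from the MEIS2 peak and 620197 bp from the PBX3 peak. Taking peaks without a symbol within 25 or 100 kb in place of 50 kb therefore left the number at 15.

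The apex windows of the 15 peaks were searched for recognition sequences on both strands. AGGTCA, the RAR hexamer, was found in 2 of 15 windows of 300 bases (HOXA7 and HOXA13), or 13.3%, beside 18.54% of all 15412. AGTTCA was found in 4 of 15, beside 12.77% of the list, and all 4 were peaks without a symbol before HOXA7. GGAAGT was present in 6 of 15 (37.27% of the list), GGGCGG in 6 (44.9%), AGGNGGC, a CTCF core, in 6 (38.86%), CACGTG in 3 (8.77%) and TGACAG in 4 (19.37%). The letters of GGGCGG and AGGNGGC can overlap in part, and each was counted on its own. The RUNX sequence TGTGGT and the AP-1 sequence TGACTCA, present in 24.4% and 12.95% of the list, were in none of the 15. Both were rarer among all peaks with a symbol (12.05% and 4.81%) and among peaks of 2 kb or wider (14.3% and 7.77%). GGGCGG was more frequent in these 2 kinds of peaks, at 70.94% and 70.64%. With 15 windows such counts are small, and a match is no evidence of a bound site, nor its absence of the contrary.

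The sites of HOX proteins themselves were rarely found. TGATTTAT and TGATTGAT, bound by HOX and PBX together, were in none of the 15 windows and in 0.7% and 0.4% of the list. TTTATGG, a HOX sequence, was in 2, that of the wide HOXA10 peak and that of the peak before HOXA9, and in 2.63% of the list. TGACAG lay within the PBX3 window and in 3 of the windows without a symbol.

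Direct repeats with a spacer of 1, 2 or 5 bases were searched over whole peaks. Each hexamer was allowed to be AGGTCA or AGTTCA or either of them with G in the first place. The only match in the 15 peaks was AGTTCACAAGGTCA, a repeat with a spacer of 2 bases on the plus strand, at chr7:27212831-27212844 in the wide HOXA10 peak. It lay in intron 1 of HOXA10, 249 bp from the nearest HOXA10 start site and 1311 bp from the apex. Such repeats were in 74 of the 15412 peaks (0.48%) and in 14 of the 1056 peaks of 2 kb or wider (1.326%). Repeats with a spacer of 1 or 5 bases, in 0.882% and 0.474% of the list, were in none of the 15.

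The base composition of the apex windows differed along the cluster. Their GC content had a median of 55.7% over the 15 peaks (43 to 72.7%), beside 58.3% in the list, and their number of CpG dinucleotides a median of 20, beside 11. In the list, peaks with a symbol had medians of 64.7% and 25, and peaks without one 53.7% and 5. From HOXA7 onward, where 6 of 8 peaks carried a symbol, the medians were 56.3% and 21.5. Before HOXA7, where no peak carried a symbol, they were 48.7% and 14. Position along the cluster and the share of peaks with a symbol thus changed together. HOXA13 had both the highest GC content, 72.7%, and the most CpG dinucleotides, 34, and the peak between HOXA11 and HOXA13 had the fewest, 1. Whether base composition plays a part in peak width was not tested.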

How the data were processed

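Cut&Run of U937-PR9 cells was analysed from 1 peak list. Per the submitters' notes and the study's methods, reads were trimmed (Trimmomatic), aligned to hg19 (Bowtie2), filtered (SAMtools) and passed to SEACR with its norm and union settings and with paired controls as background, and peaks reproducible in both replicates at an IDR below 0.05 were retained. Tool versions are not given in the sources used here. The authors deposited the total signal of each peak, a score that equals its largest signal (called height) and its width in bp, and gene symbols for peaks at promoters. Whether the deposited values carry the normalization of the peak caller or any other is not stated in the sources used here. Column content was inferred from the values, since total signal was below height times width in all 15412 peaks. SEACR joins contiguous signal, which affects width and total.

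Positions were taken from GENCODE release 44 mapped to GRCh37, the build hg19 corresponds to. Peaks were selected, ranked and compared with the whole list, and sequences searched, in Python 3.11.15 (numpy 2.4.6, pandas 2.3.3, scipy 1.17.1, matplotlib 3.10.9). The selection, the interval and the motif search were tested on simulated data. Named genes were all 9 members with every peak of the selection and the genes of 8 fixed lists. The members, lists and search sequences were chosen with earlier results of these data known. Results for some genes of these lists are not reported here. No test was run, since replicate values were not analysed here. Depth is unknown.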

Additional observations from a re-analysis of the deposited data

How the results depend on the processing

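No paired analysis was possible because the values are not given per replicate, and no replicate could be left out. Of 26 alternatives, 18 left a value within 1.5 times of a count or within the interval of a share. This number is no measure of stability, since some of the 18 could hardly differ. Merging peaks within 1 kb joined none in the HOXA window, where the smallest gap was 1333 bp. Other distances for peaks without a symbol selected the same 15 peaks. The intervals are also wide, such as 19.8 to 64.3% for height, so a share can move far and still be counted. Requiring at least the median height, which shortens the list by construction, left 6 of the 15 peaks, 5 of the 13 of the HOXA window and 3 of the 6 members named. Taking every peak within 50 kb of a member's start site, whatever its symbol, gave 23. With total signal in place of height, 80% of the peaks lay above the median of the list in place of 40%, because total signal also grows with width. Without the HOXA window 2 peaks were left, PBX3 and MEIS2, of which 100% were wider than the median and 100% carried a symbol, the latter fixed by their selection. In windows of 200 bases, 0% of the 15 held AGGTCA in place of 13.3%, because both matches lay farther from the apex. Unknown depth, normalization and replicate values limit every height and width given.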
